A study of Homo sapiens with 8 samples.

Results

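The genes described here encode the proteins of the cytosolic ribosome. They are the rows of the deposited count table with a name made of RPL or RPS, a number and at most an A, L or X, together with RPLP1, RPLP2 and RPSA, and with at least 10 reads in some library. Of 33045 gene names 68 fit those letters and 66 had the reads, 43 of the large (60S) and 23 of the small (40S) subunit. RPL10L, with at most 3 reads, was below the minimum. No row carried the name RPLP0, which was not analysed here. The study sequenced RNA from 2 human acute myeloid leukemia lines treated with vehicle or with DDP38003 at 0.5 µM, an inhibitor (LSD1i) of LSD1, the histone demethylase encoded by KDM1A. KASUMI-1, which carries the RUNX1::RUNX1T1 fusion and which the series calls sensitive, was sampled after 6 and 72 h. The line that the series calls resistant, THP-1, is of monocytic type, carries a KMT2A fusion and was sampled after 24 and 72 h. The times were those at which the study first detected, and last tested, a change in mTOR regulation after the inhibitor. Every such group held a single library, which gives 8 libraries in 4 pairs of LSD1i and vehicle. No label says that libraries came from separate cultures, so the spread behind the p-values is that between these libraries alone, may be technical, and also holds changes with time.

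A ribosome holds a single copy of nearly every ribosomal protein, and cells make these proteins in nearly matched amounts from mRNAs that are among the most abundant they hold. Most of the mRNAs begin with a cytosine followed by a run of pyrimidines, the 5′ terminal oligopyrimidine (TOP) motif. Through this motif and the RNA-binding protein LARP1, mTOR complex 1 controls their translation, and it can also affect their stability. Nearly every such gene has processed pseudogenes elsewhere in the genome, which makes short reads from these mRNAs hard to place. A few members have close paralogs: RPL3L is known from muscle, RPL10L and RPL39L from testis, and RPS27L is a p53-responsive copy of RPS27.

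The annotated start of the transcript is shown for the genes on which the results turn, so that a pyrimidine run there can be read. The windows rest on annotation alone. A start without such a run therefore does not show that the mRNA lacks the motif. The windows come from RefSeq on GRCh38.p14 and hold 15 bases before and 15 from the annotated start. Capitals mark the unbroken run of C and T from the start.
RPLP1: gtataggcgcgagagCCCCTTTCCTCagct
RPS24: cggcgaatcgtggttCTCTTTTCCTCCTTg
RPS12: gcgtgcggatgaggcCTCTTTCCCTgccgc
RPS6: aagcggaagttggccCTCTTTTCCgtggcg
RPL10: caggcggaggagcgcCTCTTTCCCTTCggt
RPS9: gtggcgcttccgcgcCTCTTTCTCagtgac
RPS27: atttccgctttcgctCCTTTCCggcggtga
RPL3: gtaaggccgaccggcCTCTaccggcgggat
RPS29: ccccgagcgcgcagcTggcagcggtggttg
RPS27L: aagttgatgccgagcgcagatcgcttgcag
They lie at chr15:69452803-69452832 (RPLP1, plus strand), chr10:78033848-78033877 (RPS24, plus), chr6:132814554-132814583 (RPS12, plus), chr9:19380222-19380251 (RPS6, minus), chrX:154398362-154398391 (RPL10, plus), chr19:54200843-54200872 (RPS9, plus), chr1:153990747-153990776 (RPS27, plus), chr22:39319609-39319638 (RPL3, minus), chr14:49598696-49598725 (RPS29, minus) and chr15:63157463-63157492 (RPS27L, minus). The run is 11 bases long for RPLP1, 14 for RPS24, 10 for RPS12 and 9 for RPS6 and RPS9. RPL10 has 3 annotated starts, and the window shows the only start of those with such a run, here of 12 bases. The annotated start of RPL3 has a run of 4, that of RPS29 a lone T, and RPS27L starts with a purine.

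The table of RefSeq promoters held 64 annotated starts of 51 members. Of these members 37 (72.6%) had a start with at least 5 C or T in a row, against 6.5% of the 27305 genes in the table. The 14 without one were RPL3, RPL4, RPL9, RPL10A, RPL15, RPL17, RPL19, RPL27, RPL32, RPS4X, RPS7, RPS27L, RPS28 and RPS29. Other letters were searched on both strands of the 300 bases from 250 before each start, as a description. The core CCGGAA of GABP sites lay in 54.7% of the members' starts and 17.3% of all 35116. The GC box GGGCGG lay in 56.25% and 44.95%, the YY1 core AAGATGG in 7.81% and 5.84%, and TATAAA in 4.69% and 11.5%. Among the members with no entry were RPL3L, RPL5, RPL7, RPL23, RPL23A, RPL30, RPL37, RPL39L, RPS2, RPS10L, RPS15A and RPS20.

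What a count can mean differs between the members, because the counting left out reads placed at several loci and reads that touch exons of 2 gene names. On current transcripts, a median of 26.7% of the 50-base stretches of a member's mRNA also occurred in the transcripts of other loci, from 0 for RPL38 to 87.0% for RPS10. In 15 of 65 members with an mRNA to examine the share was over 50%. RefSeq names 1688 pseudogenes of the members, a median of 19.5 each and up to 137 for RPL21. The 61 members left after dropping doubtful rows showed no clear relation of shared stretches to reads per kilobase (r = 0.15, rho = -0.07, across genes of the same libraries). Of the doubtful rows, RPL17, RPL41 and RPS28 lie on another chromosome than the gene now so named, and RPS10L has no current entry. RPS29 is doubtful for another reason: 88.6% of its 796 bases (chromosome 14, 49113809 to 49122844, minus strand, NCBI36) are shared with a second name, AL139099.3-2, on which 0 reads were counted in every library. Only the 91-base exon from 49120053 to 49120143 is its own, so the RPS29 counts come from that exon and not from the whole mRNA. RPL10 shares 38.3% of its exon bases with DNASE1L1.

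Counted reads ranged from 23722972 in the KASUMI-1 vehicle library at 72 h to 45970766 in the KASUMI-1 LSD1i library at 72 h. RUNX1T1, the fusion partner, stood at 76.2 to 106 CPM (depth-scaled counts per 1000000 reads) in KASUMI-1 and 0.119 to 0.201 in THP-1. All 5 KASUMI-1 markers were detected in KASUMI-1, with a summed 8908 to 12420 CPM against 601.5 to 1132 in THP-1, where 3 were detected. Of 5 THP-1 markers 4 were detected in THP-1 (668 to 11260 CPM; MEIS1 was not) and 3 in KASUMI-1 (64.0 to 459 CPM). Of 11 markers of other cell types 2 were detected in KASUMI-1, EPCAM and CD79A, with a summed 134 to 173 CPM, and none in THP-1 (1.66 to 2.30 CPM); HBB, HBA2 and COL1A2 were at 0 throughout. The myeloid gene CD86 was higher with LSD1i in every pair, from 0.57 to 0.715 CPM in the vehicle libraries and from 11.1 to 41.3 CPM in the treated ones.

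The ribosomal protein genes took a larger share of every KASUMI-1 library than of any THP-1 library. In KASUMI-1 the share of counted reads was 16.9% in the 6 h vehicle library and 14.8% with LSD1i, and 16.0% in the 72 h vehicle library and 17.7% with LSD1i. In THP-1 it was 8.40% and 8.12% at 24 h, and 8.002% and 9.11% at 72 h, vehicle first. The widest exact 95% binomial interval, that of the KASUMI-1 vehicle library at 72 h, ran from 15.95% to 15.98% and covers counting error only. In such shares fewer cells of a kind and less RNA per cell cannot be told apart. With LSD1i the share was lower at 6 h and higher at 72 h in KASUMI-1 and higher at 72 h in THP-1. At 24 h in THP-1 the side on which the members lay depended on the scaling, as given below, and no test was possible within a pair. RPL genes held 1.70 to 1.80 times as many reads as RPS genes in KASUMI-1 and 1.45 to 1.49 times as many in THP-1, with no overlap between the lines.

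**Figure D1:**
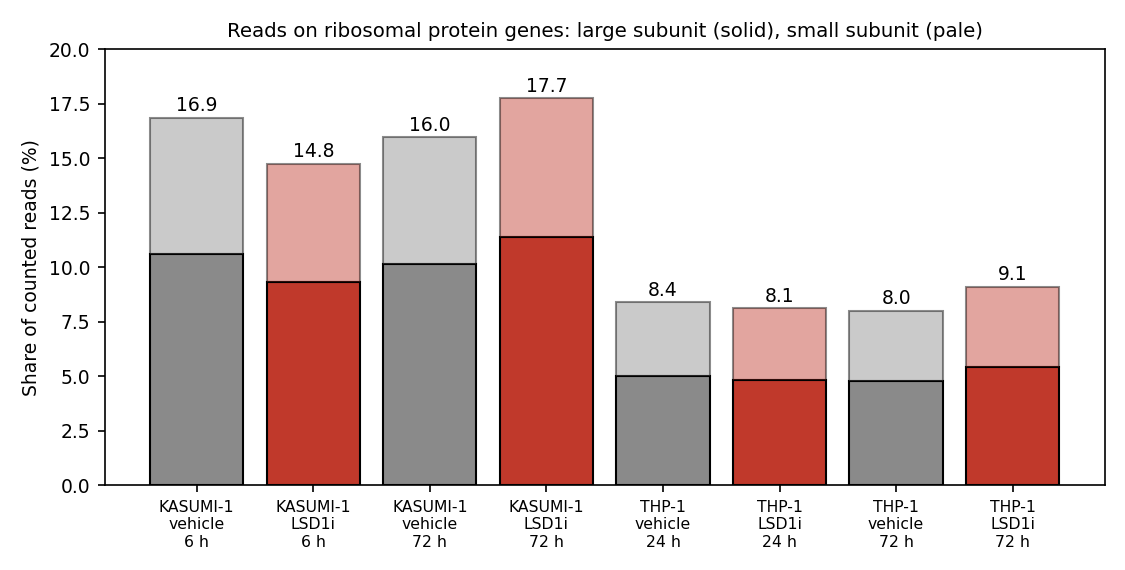
Share of counted reads (%) on the 66 ribosomal protein genes in each of the 8 libraries, grey for vehicle and red for LSD1i, with large-subunit genes solid and small-subunit genes pale. KASUMI-1 libraries lie between 14.8% and 17.7%, THP-1 libraries between 8.002% and 9.11%.

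Levels per length spread widely among the members. Some exon models are longer than a current mRNA of the gene, which lowers the value. For RPL28 (241 RPKM) the model has 4205 bases and the mRNA 852, for RPL36A (374 RPKM) 2991 and 429. Over the vehicle libraries the median was 2015 RPKM (depth-scaled reads per kilobase of exon model), and 50 of 66 members were above 1000. Among the highest were RPL41 at 7430 (a doubtful row), RPS24 at 7036, RPLP1 (an acidic stalk protein) at 6637 and RPL30 at 4986. The lowest were RPL39L at 44.3, RPS27L at 21.3, RPL17 at 18.9 (a doubtful row), RPS10L at 0.608 (a doubtful row) and RPL3L at 0.112. RPS29 stood at 99.1, next above these rows. That value was divided by all 796 bases, although only the 91-base exon could be counted, so it understates the level per countable base. RPL3L had 7 to 26 reads per library and RPS10L 8 to 17, so their ratios carry little.

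The first comparison set the vehicle libraries of the lines side by side. Of the 66 members 58 were lower in THP-1 than in KASUMI-1, RPS27L alone was higher, and 7 did not pass (edgeR quasi-likelihood test, Benjamini-Hochberg adjusted p under 0.05). Of all 15456 genes tested 56.5% were called, 26.4% as lower and 30.1% as higher. The members' median difference was -1.39 on the log2 scale, a 2.61-fold lower level, against 0.00 over all genes, and the folds of the 58 ran from 1.42 to 5.08. In 60 members both KASUMI-1 vehicle libraries lay above both THP-1 ones, as in 38.6% of all genes. Both subunits shared the shift, with medians of -1.35 for the 40S and -1.42 for the 60S genes. The times of the first libraries differed (6 and 24 h). Without the early library of KASUMI-1 or of THP-1, which leaves a single vehicle library in that line, the members' median was -1.33 and -1.37.

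The largest difference was that of RPL10, a protein of the 60S joining surface that is mutated in some T cell leukemias. Its vehicle libraries stood at 3265 and 3227 CPM in KASUMI-1 and 573 and 703 CPM in THP-1, a log2 difference of -2.34 ± 0.16 (SE; edgeR adjusted p = 6.65e-07). RPL3, at the peptidyl transferase center, had 5315 and 6118 CPM against 1428 and 1681, a difference of -1.87 ± 0.15 (edgeR adjusted p = 2.70e-06). RPL38, known for its role in the translation of Hox mRNAs, had 1888 and 1417 CPM against 509 and 412, a difference of -1.84 ± 0.19 (edgeR adjusted p = 1.52e-05). In each of the 3 the lines did not overlap and the spread between vehicle libraries of a line was small beside the gap. RPS29 (-2.03 ± 0.25) and RPS28 (-1.90 ± 0.17) followed RPL10 in size, both on doubtful rows. Of the stalk and laminin-receptor proteins, RPLP1 differed by -1.62 ± 0.16, RPSA by -1.43 ± 0.14 and RPLP2 by -0.94 ± 0.17, all called.

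A few abundant members stood apart from this shift. RPS6, the substrate of S6 kinase, had 4015 and 3614 CPM in KASUMI-1 and 3608 and 3589 CPM in THP-1, a difference of -0.08 ± 0.14 (edgeR adjusted p = 0.642), with the lower KASUMI-1 and the higher THP-1 library almost level. RPS27, RPS15A and RPL21 were likewise not called, at -0.21, -0.16 and -0.11. Of the 50-base mRNA stretches 80.1% for RPL21 and 66.5% for RPS27 also occur in transcripts of other loci. For RPS15A this share was 30.5% and for RPS6 8.07%. Whether the lost reads shaped these differences was not tested. The vehicle libraries of the lines overlapped for RPL21 (1121 and 1055 CPM in KASUMI-1, 1097 and 911 in THP-1) and for RPS27 (1628 and 1276 CPM, 1353 and 1143). RPS27L went the other way, with 42.4 and 36.9 CPM in KASUMI-1 and 113 and 107 CPM in THP-1, a rise of 1.48 ± 0.17 (edgeR adjusted p = 3.37e-05). RPS27, whose start in the windows above has the pyrimidine run that RPS27L lacks, was expressed far above it in both lines.

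**Figure D2:**
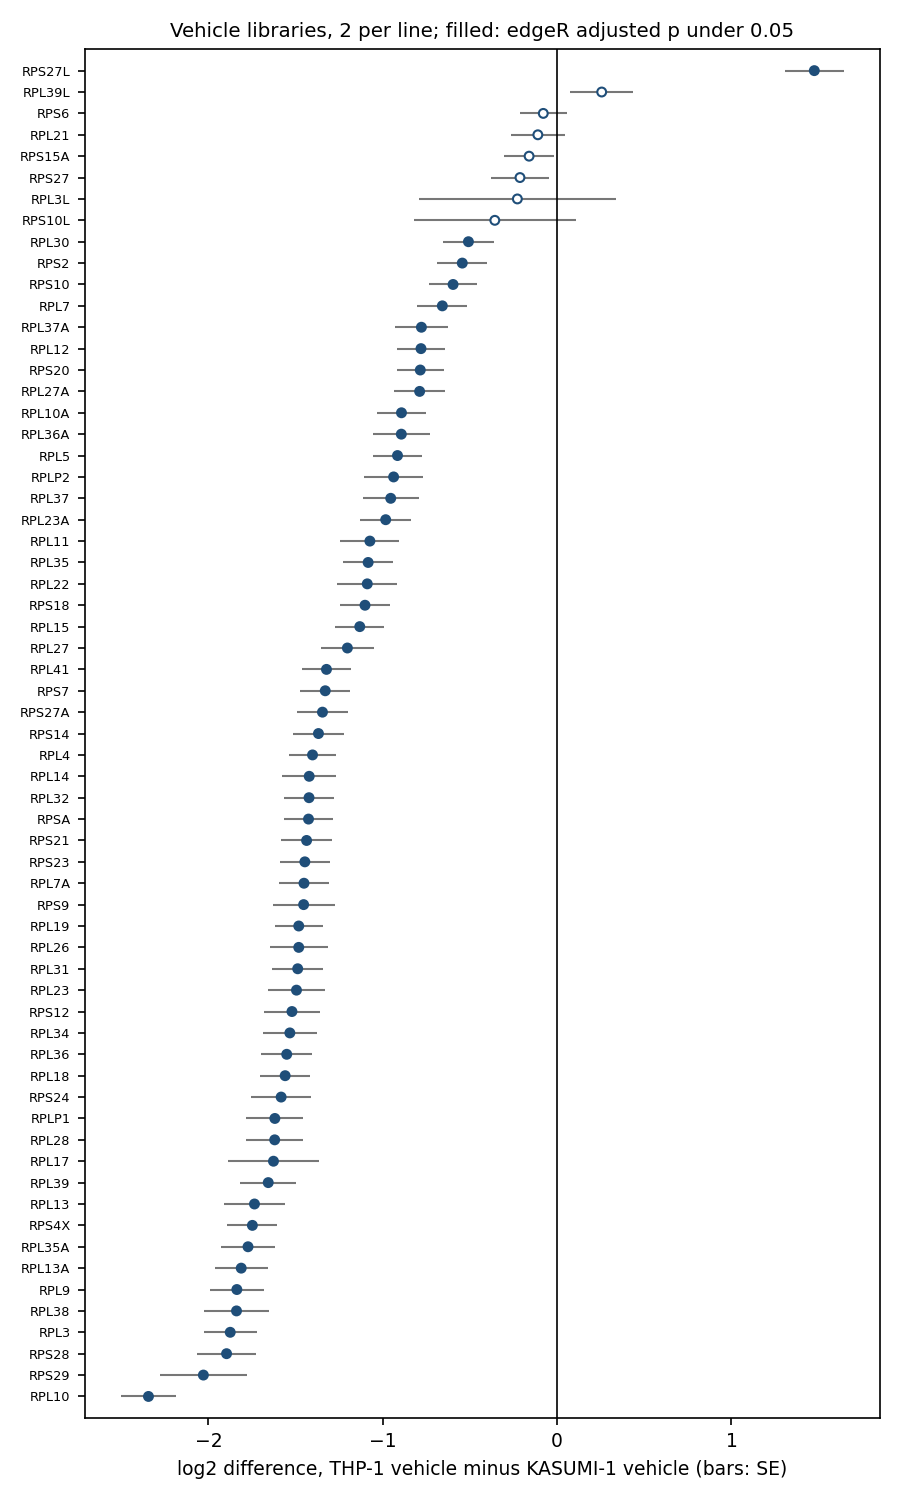
Log2 difference between the vehicle libraries of THP-1 and KASUMI-1 (x axis, 2 libraries per line) for 63 of the 66 members (the others are not named here), with SE bars. Filled points passed the test; 55 of them lie below 0 and RPS27L alone above.

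The second comparison asked how the genes responded to LSD1i in KASUMI-1 over both times. RPS29 alone was lower and no member was higher, where 12.1% of 16060 genes were called, 5.09% as lower and 7.02% as higher. DESeq2 called 3 lower, among them RPS29 and RPS9, and 0 higher, where it called 9.97% of all genes in either direction. By unadjusted p under 0.05 edgeR counted 2 members in either direction, a count for which the share of all genes was not taken. The median of the members was -0.04, with 24 above and 42 below 0, against 0.02 over all genes. This value near 0 joins pairs of opposite sign: leaving out 72 h gave a members' median of -0.31, and leaving out 6 h one of 0.25.

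At 6 h in KASUMI-1 the ratio of LSD1i to vehicle was below 1 for 64 of 66 members. The median log2 ratio was -0.31, against 0.00 over all genes, and the middle 50% of members lay between -0.36 and -0.26. Past 0.32 on the log2 scale, with a counting interval that left out equality, were 27 members downward and 1 upward, where 9.25% of all genes were past it downward and 11.4% upward. The upward one was RPL3L, at 8 and 26 reads. The lowest above 2 CPM were RPS29 at -0.69, RPS28 at -0.48 and RPLP1 at -0.45, the last from 5842 to 4289 CPM. The highest above 2 CPM were RPL39L at 0.07, RPS27L at -0.04 and RPL15 at -0.09; with scaling to total reads RPS27L and RPL15 were at 0.07 and 0.02. The counting intervals of the paralogs RPL39L (-0.06 to 0.19) and RPS27L (-0.14 to 0.06) included equality. The 442 other genes with less than 1000 exon bases and over 20 CPM had a median of -0.30 in this pair, close to the members, and 40 other genes as abundant as the members a median of -0.16. The part of transcript length in the result was not tested.

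At 72 h in KASUMI-1 most of the same ratios were above 1. The median was 0.24, against 0.04 over all genes, with 52 members above and 14 below 0. Past 0.32 were 19 members upward and 2 downward, where 20.5% of all genes were past it upward and 15.9% downward, so the upward count is near the background. The highest were RPL23 at 0.52, RPS12 at 0.50 and RPS24 at 0.50. RPL23, whose free form binds MDM2, went from 2673 to 3844 CPM, RPS12 from 3370 to 4765 CPM and RPS24 from 5688 to 8035 CPM. The lowest above 2 CPM were RPS29 at -0.79 and RPS9 at -0.35, of which RPS9 went from 1771 to 1388 CPM. Here the short other genes had a median of -0.32 and the abundant other genes one of 0.15. By subunit, 39 of 43 large-subunit genes but 13 of 23 small-subunit genes were above 0, with medians of 0.26 and 0.10; the difference was not tested. With scaling to total reads the median was 0.16 here, with 48 members above 0, and 61 members were below 0 at 6 h.

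Set against each other, 51 members were below 0 at 6 h and above 0 at 72 h. Below 0 at both times were 13, among them RPL13, RPL35, RPS2, RPS9, RPS10, RPS10L, RPS20, RPS21, RPS28, RPS29 and RPSA. RPSA, the laminin receptor protein of the 40S subunit, had 2837 and 2141 CPM at 6 h and 3060 and 2761 CPM at 72 h, vehicle first. RPL39L went from above to below 0, and RPL3L was above 0 at both times. Across the 61 members without doubtful rows the ratios of the pairs had r = 0.04 and rho = 0.26, RPL3L with its few reads included, as a description of 2 pairs that share no library. Within an agent, the vehicle libraries of KASUMI-1 moved by a median of -0.14 from 6 to 72 h (19 members up, 47 down) and the LSD1i libraries by 0.38 (63 up, 3 down).

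**Figure D3:**
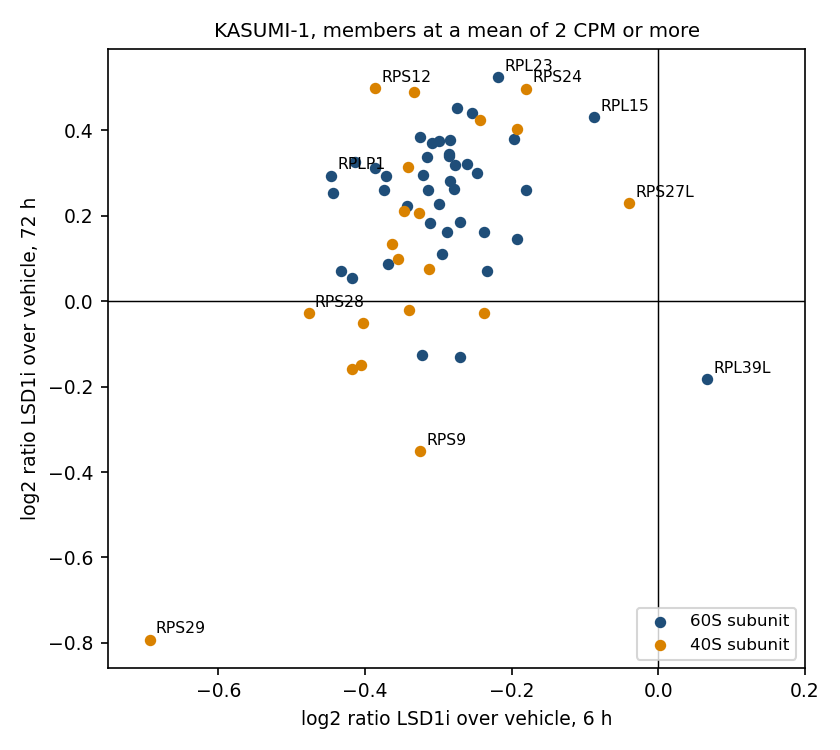
Log2 ratio of LSD1i to vehicle in KASUMI-1 at 6 h (x axis) and 72 h (y axis) for 61 of the 64 members at a mean of 2 CPM or more (the others are not named here), blue for the 60S and orange for the 40S subunit. Most points lie left of 0 and above 0, with RPS29 alone at the lower left corner.

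The change between those times was tested in a fit whose 1 residual degree of freedom came from the THP-1 pairs alone. Its error therefore leaned on the spread shared across all genes. The difference, 72 h minus 6 h, was positive for 61 of 66 members, with a median of 0.55 against 0.05 over all genes. None of the members passed the adjusted threshold in edgeR, where 0.45% of 16651 genes did (0.348% upward and 0.102% downward). By unadjusted edgeR p 25 members were under 0.05, a count for which the share of all genes was not taken. DESeq2 called 0 members, where it called 0.012% of all genes. The smallest p was that of RPS12, with a difference of 0.89 ± 0.32 (edgeR adjusted p = 0.276), followed by RPS27 at 0.83 ± 0.30 (edgeR adjusted p = 0.302).

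In THP-1 nearly all members leaned upward with LSD1i and 2 were called. The median was 0.16, against -0.01 over all genes, and 65 of 66 members were above 0, RPL36 (-0.02) being the exception. RPS29 and RPL39L were higher, where 9.36% of 16060 genes were called, 6.51% as higher and 2.85% as lower. DESeq2 called 2 higher and 0 lower, where it called 6.16% of all genes in either direction. By unadjusted p edgeR counted 3 members under 0.05, and the share of all genes was not taken. The times differed here too. At 24 h the median ratio was 0.03 and 39 members were above 0; with scaling to total reads the median was -0.03 and 22 were above 0, so no direction is given for that pair. Past 0.32 were 2 members upward (RPS29 and RPL39L) and 0 downward, where 12.1% and 8.66% of all genes were.

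At 72 h in THP-1 the median ratio was 0.31 and 65 members were above 0. Scaling to total reads moved the median of all genes by -0.13 and that of the members to 0.19 (61 above 0), leaving the members 0.32 above the median of all genes in either case. Past 0.32 were 28 members upward and 0 downward, where 13.6% of all genes were past it upward and 14.3% downward. The highest were RPL39L at 0.86, RPL17 at 0.83 (a doubtful row with few reads) and RPS29 at 0.66. RPL23 stood at 0.52, from 931 to 1337 CPM. The lowest above 2 CPM were RPL36 at 0.08, RPL27A at 0.11 and RPL36A at 0.12, and with total reads these were at -0.05, -0.02 and -0.01. The short other genes had a median of 0.16 and the abundant ones one of 0.24. From 24 to 72 h the members' median moved by -0.11 in vehicle and by 0.18 with LSD1i, the latter upward in 65 of 66. The stalk proteins RPLP1 and RPLP2 stood at 0.32 and 0.28, RPSA at 0.42 and RPS6 at 0.40.

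RPS29, a small zinc-binding protein of the 40S head, was the member with the largest called response, and it went in opposite directions in the lines. In KASUMI-1 its level was 101 CPM with vehicle and 62.2 with LSD1i at 6 h, and 153 and 88.2 CPM at 72 h. In THP-1 it was 24.9 and 51.0 CPM at 24 h, and 37.0 and 58.6 CPM at 72 h. LSD1i and vehicle did not overlap within either line, and with LSD1i the lines stood closer (62.2 and 88.2 against 51.0 and 58.6 CPM) than with vehicle. The response was -0.74 ± 0.13 in KASUMI-1 (edgeR adjusted p = 0.00147) and 0.85 ± 0.13 in THP-1 (edgeR adjusted p = 2.17e-04). The difference of response was 1.59 ± 0.18 (edgeR adjusted p = 6.25e-05), where 5.69% of genes were called, 3.07% as higher and 2.62% as lower. For this difference edgeR called 2 members, RPS29 and RPL39L. DESeq2 called 3, these and RPS9 (0.59 ± 0.18, DESeq2 adjusted p = 0.0183), where it called 5.37% of all genes in either direction. These counts, of 1186 to 3836 reads, come from the 91-base exon that the second gene name does not share. They cannot tell less RPS29 mRNA from a different use of that exon. Without the THP-1 24 h pair, which leaves a single pair in that line, the value in THP-1 was 0.64 and no longer called. Without a term for the pairs neither response was called (edgeR adjusted p = 0.19 in KASUMI-1 and 0.145 in THP-1). In that setting 0.623% of all genes were called in KASUMI-1 and 2.83% in THP-1.

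RPL39L, the testis-associated copy of RPL39 that other cell types also express at low level, was the only member with a sound row that edgeR called for LSD1i. Its level was 26.1 and 27.3 CPM in KASUMI-1 at 6 h and 30.9 and 27.2 CPM at 72 h, vehicle first. In THP-1 it was 35.6 and 52.2 CPM at 24 h and 32.0 and 58.2 CPM at 72 h. The treated THP-1 libraries lay above all 6 others. The response was 0.71 ± 0.14 in THP-1 (edgeR adjusted p = 0.00181) and -0.06 ± 0.14 in KASUMI-1 (edgeR adjusted p = 0.851), and the difference was 0.76 ± 0.19 (edgeR adjusted p = 0.0288). Without the THP-1 72 h pair the value in THP-1 was 0.54 and no longer called. The difference lost its call without either THP-1 pair and without KASUMI-1 at 72 h, fits that leave a line with a single pair. It also lost its call without a term for the pairs, where 0.137% of all genes were called. RPL39 itself went from 577 to 786 CPM at 72 h in THP-1 and from 635 to 720 CPM at 24 h. RPS27L, the other expressed paralog, responded by 0.16 ± 0.12 in THP-1 and 0.09 ± 0.13 in KASUMI-1, not called in either.

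**Figure D4:**
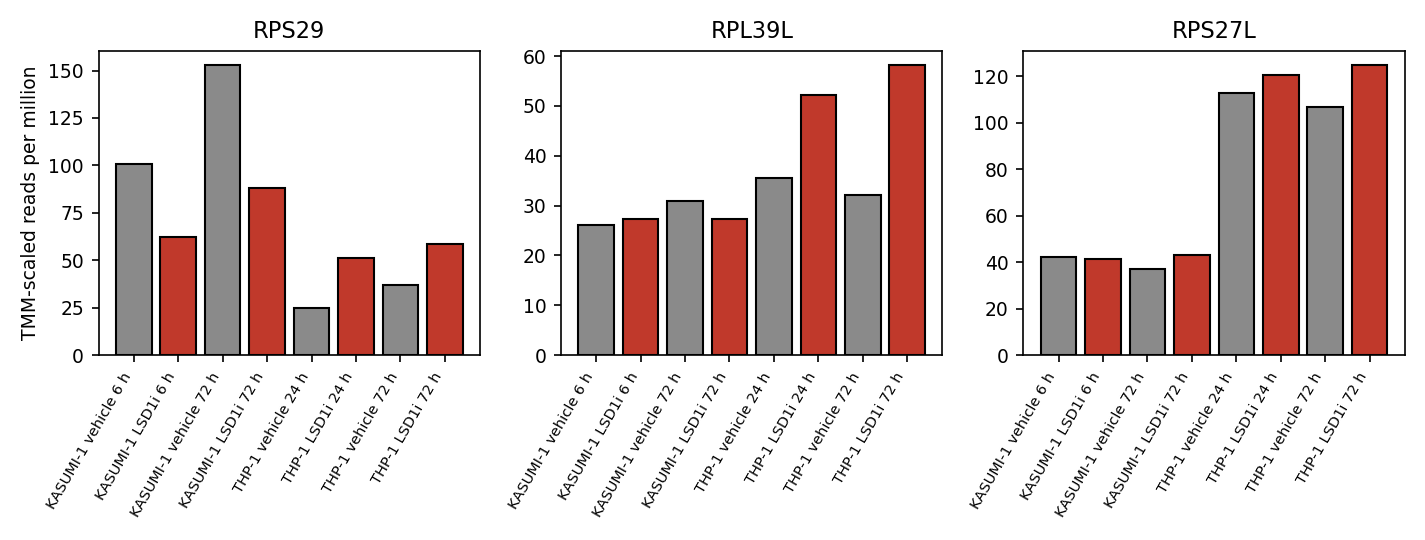
TMM-scaled CPM of RPS29, RPL39L and RPS27L in the 8 libraries, grey for vehicle and red for LSD1i. RPS29 falls with LSD1i in KASUMI-1 and rises in THP-1, RPL39L is highest in the 2 treated THP-1 libraries, and RPS27L separates the lines.

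Genes around the ribosome were read from lists chosen by function. Of 18 other mRNAs of the TOP type, such as EEF1A1 and EEF2 (elongation factors) and FAU (a ribosomal protein fused to a ubiquitin-like protein), 17 were lower in vehicle THP-1, with a median of -1.22, where 26.4% of all genes were lower. EEF2 differed by -2.05 ± 0.31 and EIF4B, an initiation factor, by -1.82 ± 0.21. Their pair medians were -0.19 and 0.34 in KASUMI-1 at 6 and 72 h, 0.06 and 0.27 in THP-1 at 24 and 72 h. EEF1A1 was at -0.13 and 0.60 in the KASUMI-1 pairs. For LSD1i edgeR called 0 of the 18 in either line, where it called 12.1% of all genes in KASUMI-1 and 9.36% in THP-1. By unadjusted edgeR p 2 in KASUMI-1 and 0 in THP-1 were under 0.05, and the share of all genes was not taken. DESeq2 called 1 lower in KASUMI-1 and 0 in THP-1, where it called 9.97% and 6.16% of all genes in either direction.

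Nuclear genes also encode the proteins of the mitochondrial ribosome. Of 76 of these tested in KASUMI-1 28 fell with LSD1i and 0 rose in edgeR, with a median of -0.36. Of the cytosolic genes 1 of 66 fell, and 5.09% of all genes were lower. DESeq2 called 31 lower and 0 higher, where it called 9.97% of all genes in either direction. An unadjusted edgeR p under 0.05 was found for 50, and the share of all genes was not taken. Their pair medians were -0.29 at 6 h and -0.41 at 72 h, beside -0.31 and 0.24 for the cytosolic genes. The 442 short genes outside the members, which may include some of this list, had -0.30 and -0.32 in these pairs. A fall of this size at both times was thus not particular to this list. The differences between the lists were not tested. MRPS12 fell by 0.77 on the log2 scale (SE 0.13, edgeR adjusted p = 0.00101), MRPS34 by 0.74, MRPL12 by 0.71 and MRPL54 by 0.71. In THP-1 MRPL33 alone rose (0.42 ± 0.12), where 6.51% of all genes were higher. The difference of response was called as higher for 12, where 3.07% of all genes were. Between the vehicle lines 16 were higher and 20 lower in THP-1, with a median of -0.13, where 30.1% of all genes were higher and 26.4% lower.

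Of 34 ribosome biogenesis factors 7 fell in KASUMI-1 and 0 rose in edgeR, where 5.09% of all genes were lower and 7.02% higher. DESeq2 called 8 lower and 0 higher, where it called 9.97% of all genes in either direction. An unadjusted edgeR p under 0.05 was found for 16, and the share of all genes was not taken. NOP16, a nucleolar 60S assembly factor, fell by 0.68 and so did RRP9, a component of the box C/D particle; MRTO4 fell by 0.65 and BOP1 by 0.60. In vehicle THP-1 19 were lower, among them FBL, the methyltransferase fibrillarin (-1.84 ± 0.18), and 4 were higher, beside 26.4% and 30.1% of all genes. Of 15 genes between mTORC1 and translation 3 fell in KASUMI-1, beside the 5.09% of all genes. They were RPS6KB2 (an S6 kinase) by 0.59, EIF4EBP1 (the cap-binding inhibitor 4E-BP1) by 0.55 and MYC by 0.42. EIF4EBP1 rose in THP-1 by 0.47 ± 0.13 (edgeR adjusted p = 0.0283), and its response differed between the lines by 1.02 ± 0.19 (edgeR adjusted p = 0.0041). Among 4 ribosomal protein paralogs with other forms of name, RPL22L1 was lower in vehicle THP-1 (-0.79 ± 0.28).

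**Figure D5:**
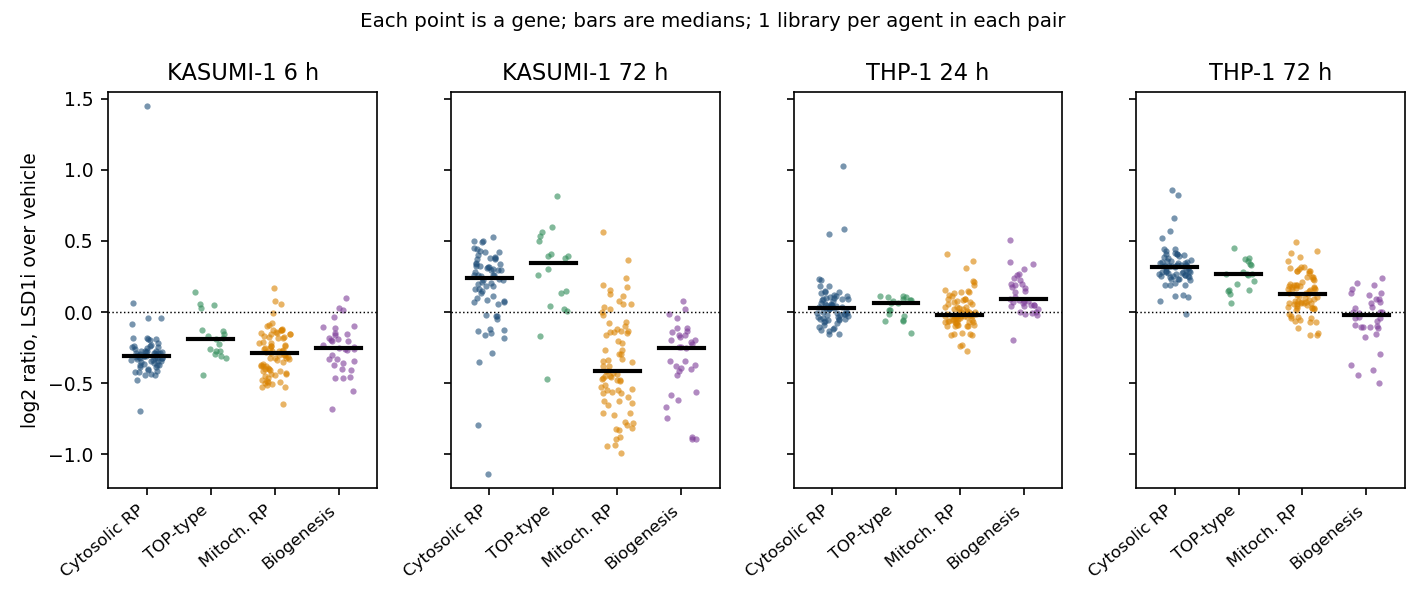
Log2 ratio of LSD1i to vehicle in each pair (panels) for the 66 cytosolic ribosomal protein genes, 18 TOP-type mRNAs, 76 mitochondrial ribosomal protein genes and 34 biogenesis factors; points are genes and bars medians. In KASUMI-1 at 72 h the cytosolic and TOP-type medians lie above 0 and the other 2 below.

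Across the 61 members without doubtful rows, the correlation of log2 exon length with the log2 ratio lay between r = -0.14 (rho = -0.13, THP-1 72 h) and r = 0.22 (rho = 0.29, KASUMI-1 6 h). The members' ratios in the THP-1 pairs at 24 and 72 h had r = 0.32 and rho = 0.33. All are descriptions over genes of the same libraries.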

How the data were processed

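Per the labels, total RNA went into 8 TruSeq libraries. Deposited by the authors were whole-number read counts, not estimated counts, made with featureCounts 1.5.2 per the file headers, with Ensembl 54 gene models (NCBI36). In the submitters' processing notes stand TopHat2 2.0.10, FastQC 0.10.0, Subread, edgeR and hg18. Multi-mapped reads and reads on exons of 2 names were left out, and no strand option was set. How reads were filtered is not given in the sources used here.

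Counts were fitted with edgeR 4.0.16 (R 4.3.3): quasi-likelihood, TMM, filterByExpr at 10 reads, Benjamini-Hochberg at 0.05. All 66 members passed the filter. LSD1i fits had a term per pair and 2 residual degrees of freedom; pairs come from line and time in the labels. Vehicle libraries had a fit of their own. Single pairs have no test: log2 ratios used a prior count of 2 and exact binomial 95% intervals. DESeq2 1.42.0, RLE, TMM without the members, no filter, no pair term and leave-one-out were alternatives. On simulated counts with 200 genes changed 2-fold, the fits recovered 185 (KASUMI-1), 193 (THP-1), 139 (difference), 197 (vehicle) and 57 (time). False calls numbered 9, 4, 8, 9 and 5 in that order. The simulated spread was the same for every fit and lay below that fitted to the vehicle libraries. These recoveries therefore do not carry over to the vehicle fit or to responses smaller than 2-fold, as those of most members were. Shared stretches used GENCODE 29. Named genes were the called members with the largest changes, the pair extremes, the highest and lowest per length, RPS29, the stalk proteins, RPSA and the paralogs. Members and lists were chosen with earlier results of these data known. Some genes are counted in the totals but not reported here by name.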

Additional observations from a re-analysis of the deposited data

Results flagged for a closer look

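The response to LSD1i differed between the lines in a test of the difference itself for 2 members in edgeR, where 5.69% of all genes were called. DESeq2 also called RPS9 (0.59 ± 0.18, DESeq2 adjusted p = 0.0183), where it called 5.37% of all genes. For RPS29 the THP-1 minus KASUMI-1 response was 1.59 ± 0.18 on the log2 scale (edgeR adjusted p = 6.25e-05), lower in both KASUMI-1 pairs and higher in both THP-1 pairs. Its count rests on the 91-base exon not shared with a second gene name. For RPL39L it was 0.76 ± 0.19 (edgeR adjusted p = 0.0288), higher in both THP-1 pairs, 0.07 and -0.18 in the KASUMI-1 pairs.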

How the results depend on the processing

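The 58 lower and 1 higher members between the vehicle lines stayed within 1.5 times those counts under RLE, scaling without the members, no filter and DESeq2. These settings called 56.4%, 56.6%, 42.2% and 52.3% of all genes in that order. With each vehicle library left out the members' median lay between -1.39 and -1.30. No member was called for the change from 6 to 72 h in any alternative. Those settings called few genes of any kind: 0 without a pair term, 0.012% in DESeq2 and at most 0.462% (scaling without the members). They could therefore hardly have called a member, and no leave-one-out fit was possible for that change. Without a replicate block for the pairs, KASUMI-1 had 0 lower members (RPS29 -0.75, edgeR adjusted p = 0.19). THP-1 then had 1 higher member (RPL39L, with RPS29 at 0.82 and edgeR adjusted p = 0.145). The difference had 0, with RPS29 at 1.57 (edgeR adjusted p = 0.157) and RPL39L at 0.77 (edgeR adjusted p = 0.247). All genes called went from 12.1% to 0.623% in KASUMI-1. They went from 9.36% to 2.83% in THP-1 and from 5.69% to 0.137% for the difference. With so few calls of any kind, a lost call says little about a member. The cause was not tested. Without RPL17, RPL41, RPS28, RPS10L and RPS29, an alternative chosen after seeing the data, KASUMI-1 had 0 lower, THP-1 1 higher and the difference 1 higher, by construction. DESeq2 called 3 lower in KASUMI-1 and 3 higher for the difference, where it called 9.97% and 5.37% of all genes in either direction. Without a KASUMI-1 pair THP-1 kept 2 higher members, where 13.4% (6 h left out) and 13.3% (72 h left out) of all genes were called. Leaving out a THP-1 pair leaves a single pair in that line. The THP-1 response was then 0.64 (24 h left out) and 1.02 (72 h left out) for RPS29, and 0.84 and 0.54 for RPL39L. For the difference any pair left out leaves a line with a single pair. RPL39L lost its difference without KASUMI-1 72 h (0.64), THP-1 24 h (0.91) or THP-1 72 h (0.61). The median ratio at 6 h in KASUMI-1 was -0.33 with RLE and -0.20 with total reads, at 72 h in KASUMI-1 0.20 with RLE and 0.16 with total reads, at 24 h in THP-1 0.016 with scaling without the members and -0.032 with total reads, and at 72 h in THP-1 0.30 and 0.19. Each pair has 1 library per agent, so its ratios have no replicate check, and RPL3L and RPS10L are also limited by their few reads.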
